A study of Mus musculus with 3 samples.

Results

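The genes of the mitochondrial genome were examined in 3 acute myeloid leukemias of mice that lack miR-196b, a microRNA encoded within the Hoxa cluster. Members were all table entries whose symbol begins with mt-, which gave 13 genes of the 28074 symbols analysed. All 13 encode proteins. GENCODE M21 annotates 37 genes on the mouse mitochondrial chromosome, and the other 2 rRNA and 22 tRNA genes were not analysed here.

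The leukemias were taken from the spleens of 3 separate moribund mice, which form 1 group. The genotype field reads miR196b-/-, Dnmt3afl/fl, Flt3ITD/ITD, Mx1Cre, so every mouse carried the microRNA deletion, floxed Dnmt3a, the internal tandem duplication of the Flt3 receptor and a Cre recombinase driven by the interferon-inducible Mx1 promoter. The sample titles give Dnmt3a+/- instead, and the ages of the mice are not stated in the labels. After lysis of red cells, beads against CD117 (c-Kit) enriched the immature cells whose RNA was sequenced. Leukemias with miR-196b intact are part of the study's design but come from a different series. They were left out, so no genotype difference was tested and every result concerns the knockout leukemias alone. The mice are numbered 1 to 3 as their samples are listed, with no meaning in the order.

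The mitochondrial genome is a small circular DNA kept in many copies per cell. It is transcribed on both strands into long precursors, and the tRNAs that lie between the mRNAs and rRNAs are cut out to release the mature RNAs. Its mRNAs encode core subunits of the respiratory chain and of ATP synthase, while the other subunits of the same complexes are made from nuclear genes. Of the 13 mRNAs, 12 are read as transcripts of the heavy strand, and mt-Nd6 alone is read from the light strand. Most mature mRNAs carry short poly(A) tails, the light-strand mRNA being the known exception, and the tails complete the stop codon where the gene ends before it.

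Sequences are printed here because they bear on how reads could be assigned to each gene. They are from the GENCODE M21 transcripts on GRCm38 (mm10), 5′ to 3′. The shortest member, mt-Atp8 (chrM:7766-7969, plus strand, 204 nt), shares its last 43 bases with the start of mt-Atp6 (chrM:7927-8607), and these are in capitals.
mt-Atp8: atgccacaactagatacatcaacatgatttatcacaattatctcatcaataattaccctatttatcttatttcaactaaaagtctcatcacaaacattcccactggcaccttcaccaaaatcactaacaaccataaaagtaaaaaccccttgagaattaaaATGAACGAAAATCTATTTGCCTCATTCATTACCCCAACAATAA

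The second-shortest member, mt-Nd4l (chrM:9877-10173, plus strand, 297 nt), has a nuclear copy, the unprocessed pseudogene Gm10222 (chr1:24612407-24612700, minus strand). The copy matches bases 1 to 294 with 0 mismatches, and the matching bases are in capitals.
mt-Nd4l: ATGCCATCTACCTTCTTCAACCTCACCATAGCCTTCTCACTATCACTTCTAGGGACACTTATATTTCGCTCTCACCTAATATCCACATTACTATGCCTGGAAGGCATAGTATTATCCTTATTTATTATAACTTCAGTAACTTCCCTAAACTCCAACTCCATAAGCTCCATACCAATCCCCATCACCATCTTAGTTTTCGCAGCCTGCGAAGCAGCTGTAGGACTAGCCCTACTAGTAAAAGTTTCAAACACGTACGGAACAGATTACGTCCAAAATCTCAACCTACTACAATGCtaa

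At its end mt-Nd4l overlaps mt-Nd4 (chrM:10167-11544) by 7 bases on the same strand. The genes mt-Nd5 (chrM:11742-13565, plus strand) and mt-Nd6 (chrM:13552-14070, minus strand) overlap by 14 bases on opposite strands. The last 30 bases of each are shown with the overlap in capitals.
mt-Nd4l end: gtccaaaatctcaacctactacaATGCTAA
mt-Nd5 end: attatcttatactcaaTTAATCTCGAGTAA
mt-Nd6 end: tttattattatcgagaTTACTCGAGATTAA

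A further 3 genes, mt-Co3 (chrM:8607-9390), mt-Nd4 and mt-Cytb (chrM:14145-15288), end in a lone T that lacks the rest of a stop codon. Their last 30 bases are shown with that base in capitals. The other 10 genes end in TAA or TAG. The start codon was ATG in 9 genes, GTG in mt-Nd1 (chrM:2751-3707), ATA in mt-Nd2 (chrM:3914-4951), ATT in mt-Nd3 (chrM:9459-9806) and ATC in mt-Nd5.
mt-Co3 end: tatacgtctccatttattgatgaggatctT
mt-Nd4 end: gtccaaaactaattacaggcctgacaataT
mt-Cytb end: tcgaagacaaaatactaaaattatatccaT

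The 12 heavy-strand mRNAs were rich in C and poor in G, with 22.1% to 30.0% C and 5.88% to 16.1% G. The light-strand mRNA mt-Nd6 had the opposite bias, with 28.1% G and 5.97% C. Total GC content ran from 31.9% in mt-Atp8 to 41.1% in mt-Nd4l.

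Values were taken as TPM, a scaled transcript abundance that allows for transcript length. How far the shortest members, mt-Atp8 (204 nt), mt-Nd4l (297 nt) and mt-Nd3 (348 nt), can be compared with longer genes was not tested. TPM keeps no read depth. The labels give 150 nt paired-end reads. The depth each library reached is unknown, and errors are the SD between mice (n = 3). The leukemias expressed Kit at 141 ± 8.10 TPM, Flt3 at 137 ± 27.1 TPM and Dnmt3a at 57.3 ± 6.73 TPM, and no miR-196b row was analysed here. These are values per gene, and whether the Dnmt3a RNA came from an engineered or an intact allele was not tested. Early myeloid genes were led by Mpo at 1192 ± 396 TPM, and not all were abundant, with Csf3r at 28.2 ± 15.4 TPM. Ptprc, which encodes the leukocyte antigen CD45, was listed at only 2.25, 3.09 and 2.40 TPM, and the reason for these low values was not tested. The most abundant row of the table was AY036118, with 26738, 27513 and 28760.5 TPM in mice 1, 2 and 3.

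The 13 mitochondrial mRNAs together held 4.16%, 3.84% and 5.10% of the summed TPM in mice 1, 2 and 3. All 13 had a mean TPM of at least 1, and 8 of them were among the 100 most abundant genes. The 3 subunits of complex IV were the highest, followed by mt-Atp6 of complex V. The complex I genes ranged from 426 to 2694 TPM, and mt-Atp8 of complex V and mt-Cytb of complex III lay within that range. Complex IV made up 58.5%, 57.4% and 51.4% of the mitochondrial mRNA, complex I 21.9%, 21.6% and 23.5%, complex V 15.5%, 16.8% and 20.7%, and complex III 4.10%, 4.08% and 4.35%.

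**Figure D1:**
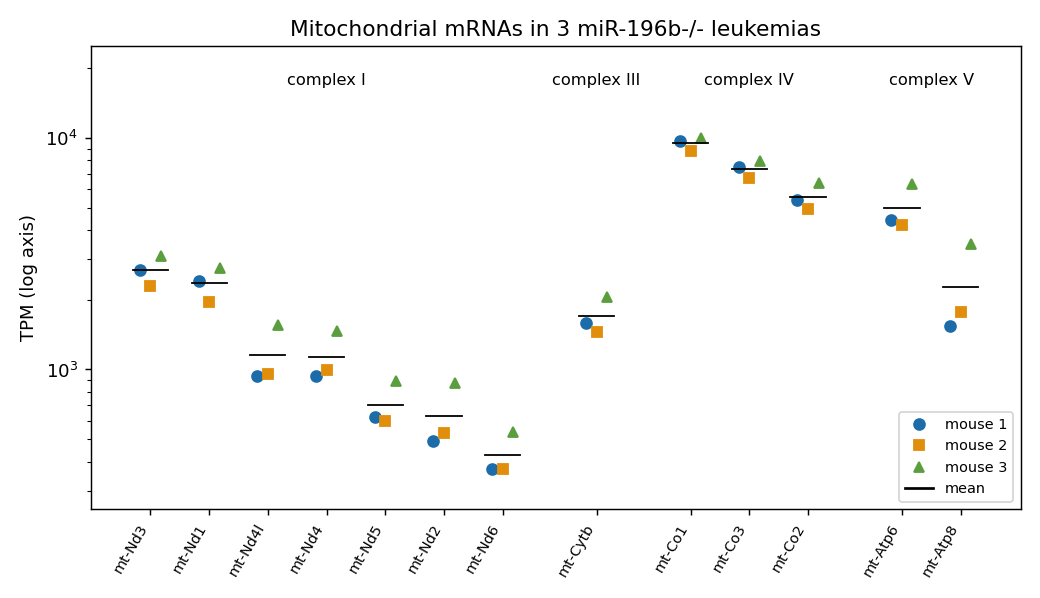
Points give the TPM (log axis) of each mitochondrial mRNA in mice 1, 2 and 3, grouped by complex, and black lines give the mean. The complex IV genes stand highest, from 4938 to 9977 TPM, and the point of mouse 3 is the highest for all 13 genes.

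Complex IV, cytochrome c oxidase, passes electrons to oxygen at the end of the respiratory chain. Its catalytic subunit mt-Co1 (chrM:5328-6872) had 9723, 8799 and 9977 TPM in mice 1, 2 and 3, a mean of 9499 ± 620.1 TPM, which ranked 2 among all genes. mt-Co3 had 7486, 6705 and 7958 TPM (7383 ± 633), and mt-Co2 (chrM:7013-7696), which holds the copper center that takes electrons from cytochrome c, had 5421, 4938 and 6386 TPM (5582 ± 737). In each gene mouse 2 was the lowest and mouse 3 the highest. mt-Co1 and mt-Co3 were the steadiest members, with SDs of 0.10 and 0.13 on the log2(TPM + 1) scale, against a median of 0.21 over the 15181 genes that averaged 1 TPM or more.

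Complex V, the ATP synthase, takes its proton channel subunit from mt-Atp6 and a small membrane subunit from mt-Atp8. Both are carried on 1 bicistronic mRNA. mt-Atp6 had 4444, 4223 and 6331 TPM (4999 ± 1158), and mt-Atp8 had 1538, 1768 and 3483 TPM (2263 ± 1063). Mouse 3 stood apart from the other mice in both genes. The ratio of mt-Atp8 to mt-Atp6 was 0.346, 0.419 and 0.550, so the reading frames of this RNA were listed at unequal levels in every mouse. mt-Atp8 had the widest spread of the 13, an SD of 0.63 on the log2 scale. It is also the shortest of them, at 204 nt.

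Complex III, cytochrome bc1, has a single mitochondrial subunit. mt-Cytb, its cytochrome b, had 1584, 1453 and 2060.45 TPM (1699 ± 319.7), with mouse 3 above the other mice.

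Complex I, NADH dehydrogenase, takes 7 membrane subunits from the mitochondrial genome, which together form much of its proton-pumping arm. The highest was mt-Nd3, with 2687, 2295 and 3099 TPM (2694 ± 402), followed by mt-Nd1 with 2417, 1950.35 and 2735 TPM (2367 ± 395). Both followed the order of mice seen in complex IV. The lowest heavy-strand members were mt-Nd5, with 622, 596 and 888 TPM (702 ± 162), and mt-Nd2, with 491, 531 and 873 TPM (632 ± 210.2). In these genes mice 1 and 2 lay close together and mouse 3 stood clear of them. The level of mt-Co1 was 19.8, 16.6 and 11.4 times that of mt-Nd2, although both belong to heavy-strand transcripts.

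mt-Nd4 and mt-Nd4l share a bicistronic mRNA, as mt-Atp8 and mt-Atp6 do. mt-Nd4 had 939.5, 994 and 1461 TPM (1132 ± 287), and mt-Nd4l had 933, 959.8 and 1556 TPM (1149.6 ± 352). Their ratio was 0.993, 0.965 and 1.07, so the listed levels were close to equal. The row of Gm10222 repeated the value of mt-Nd4l in all 3 mice, digit for digit. With both rows summed, mt-Nd4l came to 1866, 1920 and 3112 TPM, which is 1.99, 1.93 and 2.13 times mt-Nd4. The deposited level of mt-Nd4l is therefore uncertain by the share given to its copy. A copy of mt-Nd4 itself, Gm28439, matches bases 1 to 876 of that gene with 0 mismatches and was not analysed here.

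Copies of other members with a row analysed here were listed at low levels. The GENCODE M21 transcripts were searched for matches of at least 90% identity over at least 100 bases, and hits on a single chromosome were left out. This gave 16 copies of 11 members, and 8 of the copies had a row analysed here. Gm13340 (chr2:22588103-22589647, minus strand) covers all 1545 bases of mt-Co1 at 97.6% identity, and was listed at 1.61, 1.96 and 2.45 TPM. Gm13341 (chr2:22587291-22587962, minus strand) covers mt-Co2 at 95.9% identity and was listed at 1.98, 2.82 and 4.19 TPM. Apart from Gm10222, the 7 copies had means under 4 TPM, and 2 of them, Gm13339 (mt-Nd2) and Gm11408 (mt-Nd6), were listed at 0 in all mice. The remaining copies, among them exact ones of mt-Atp6, mt-Co2, mt-Co3 and part of mt-Nd4, were not analysed here.

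The light-strand gene mt-Nd6, a further complex I subunit, was the lowest member. It had 370.3, 371 and 536 TPM (426 ± 95.3), against medians of 2001, 1859 and 2917 TPM over the 12 heavy-strand mRNAs. The ratio of mt-Nd6 to that median was 0.185, 0.1995 and 0.184, a mean of 0.189 ± 0.0088. Against its neighbour mt-Nd5 the ratio was 0.596, 0.622 and 0.603. Both ratios varied little between mice, so mt-Nd6 was higher in mouse 3 along with the heavy-strand genes. The kit is labelled as stranded, and whether strand was used in quantification is not given in the sources used here. The labels name both ribosomal depletion and an mRNA kit, and the light-strand mRNA is the known exception to poly(A) tailing. The level of mt-Nd6 and its capture in the library therefore cannot be told apart here.

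Ordered by mean level, the members ran from mt-Co1 through mt-Co3, mt-Co2, mt-Atp6, mt-Nd3, mt-Nd1, mt-Atp8, mt-Cytb, mt-Nd4l, mt-Nd4, mt-Nd5 and mt-Nd2 to mt-Nd6. Of the 12 neighbouring pairs in this order, 9 kept their direction in all 3 mice with a mean log2 ratio above the SD of that ratio. The other 3 pairs did not: mt-Nd1 and mt-Atp8, mt-Atp8 and mt-Cytb, and mt-Nd4l and mt-Nd4. The order was set by the means of these same 3 mice, so the counts describe it and do not test it. With Gm10222 added, mt-Nd4l (1866, 1920 and 3112 TPM) lay above mt-Cytb (1584, 1453 and 2060.45 TPM) in all 3 mice, which turns that pair and parts mt-Nd4l from mt-Nd4. mt-Atp8 was the member that moved most in rank, at 8, 7 and 5 in mice 1, 2 and 3. The step from mt-Co2 to mt-Atp6 was 1.22 and 1.17 times in mice 1 and 2 and 1.01 times in mouse 3. With 3 mice, an exact paired permutation test cannot give a p-value below 0.25, and none is given.

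Levels showed no steady trend along the genome. Across the 12 heavy-strand mRNAs, the log2 level and the order along the genome had a Pearson r of -0.33 and a Spearman rho of -0.34. Across all 13 genes, log2 length and log2 level had an r of 0.01. All of these genes come from the same 3 libraries, so the correlations are descriptions only. Adjacent genes could differ widely, as the pair mt-Nd2 and mt-Co1 did.

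**Figure D2:**
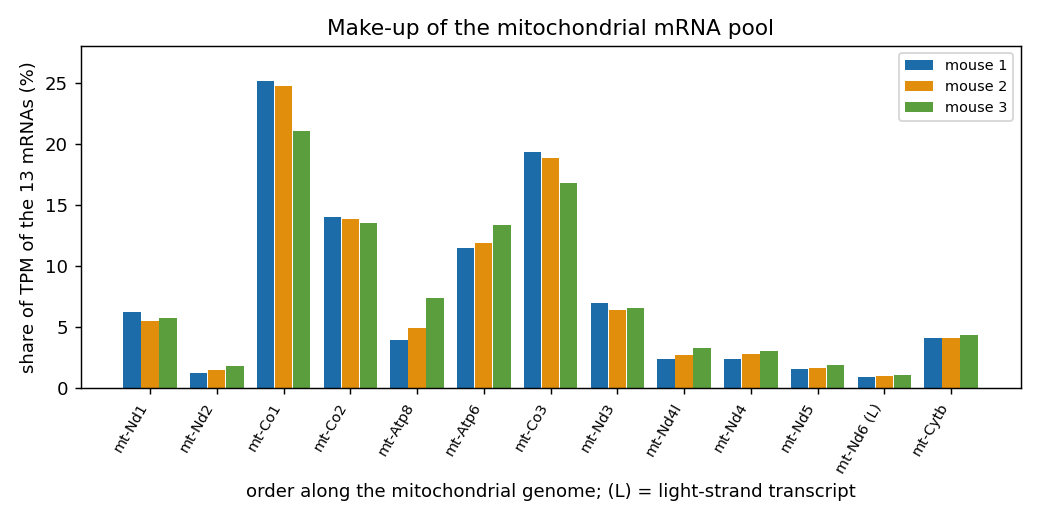
Bars give the share (%) of the summed TPM of the 13 mitochondrial mRNAs held by each gene in mice 1, 2 and 3, in genome order, with the light-strand gene marked. mt-Co1 takes the largest share in every mouse, from 21.1% to 25.2%, and in mouse 3 mt-Atp8 takes 7.36%, above its shares in mice 1 and 2.

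All 13 members had their highest TPM in mouse 3, while 20.3% of all genes that averaged 1 TPM or more did. The members lie on 1 genome and are cut from shared precursors, so they are not independent of each other. Members' levels in mouse 3 were 1.08 to 2.11 times the mean of mice 1 and 2, with a median of 1.45, beside a median of 0.919 over all such genes. Scaling each mouse to a common upper quartile shifted the libraries by -0.08, 0.02 and 0.07 log2 units. It left 13 of 13 members highest in mouse 3, against 30.4% of all genes, as did scaling to the sum of the other rows, against 21.5%. With the upper quartile the median ratio was then 1.55 for members and 0.982 for all genes. In bulk RNA, more cells rich in mitochondrial RNA and more such RNA per cell cannot be told apart.

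The excess in mouse 3 was unequal. It was at least 1.5 times for mt-Atp8 (2.11), mt-Nd2 (1.71), mt-Nd4l (1.64) and mt-Nd4 (1.51), 4 of 13 members, against 5.15% of all genes. After upper-quartile scaling 7 of 13 members passed this fold, against 6.53% of all genes. The complex IV genes mt-Co1, mt-Co3 and mt-Co2 had the lowest ratios, 1.08, 1.12 and 1.23. The ratio of mt-Atp6 was 1.46, below that of mt-Atp8, although both are carried on the same mRNA. mt-Atp8 and mt-Nd4l are the shortest members, and the level of mt-Nd4l is uncertain by its copy. Across the 13 genes the log2 ratio and the log2 level had a Pearson r of -0.59 and a Spearman rho of -0.68, both computed from the same 3 libraries. Within the mitochondrial mRNA, mt-Co1 held 25.2%, 24.7% and 21.1% in mice 1, 2 and 3, and mt-Co3 held 19.4%, 18.8% and 16.8%. The share of mt-Atp8 was 3.98%, 4.97% and 7.36%. In shares, 8 of the 13 genes were highest in mouse 3.

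**Figure D3:**
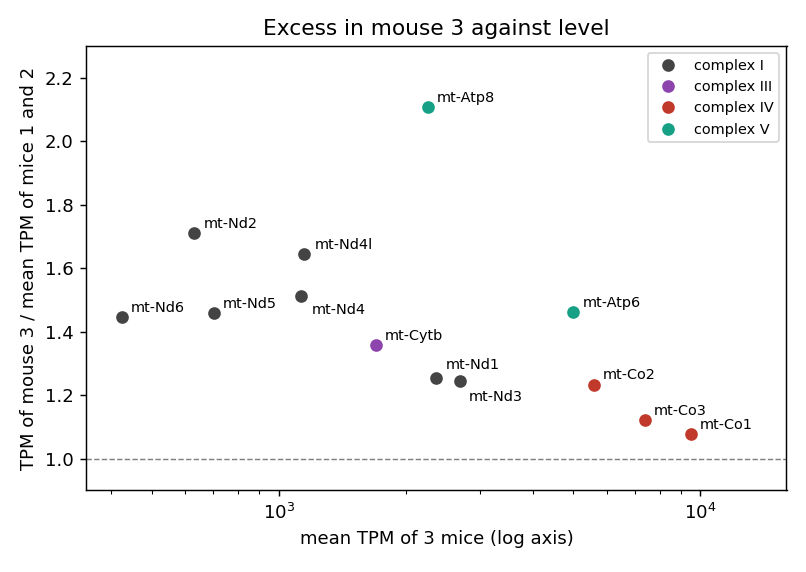
Each point is a mitochondrial mRNA, placed by its mean TPM over 3 mice (log axis) and by its TPM in mouse 3 divided by the mean of mice 1 and 2, and colored by complex. All 13 points lie above 1 (dashed line), from 1.08 for mt-Co1 to 2.11 for mt-Atp8, and the complex IV genes lie lowest.

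By the median over members, mice 1 and 2 lay close together. In mt-Co1, mt-Co3 and mt-Nd1, however, mouse 1 was nearer to mouse 3 than to mouse 2. For mt-Co1 the values of mice 1, 2 and 3 were 9723, 8799 and 9977 TPM. The median SD of the members on the log2(TPM + 1) scale was 0.31 over all mice, beside 0.21 for genes that averaged 1 TPM or more and 0.13 for every listed gene. Without mouse 3 it was 0.09, beside 0.19 for the genes of 1 TPM or more. Over the 13 members, mouse 1 was above mouse 2 in 8 genes and below it in 5.

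Markers of other cells varied between mice, and their part in the mitochondrial values was not tested. Erythroid and B cell genes had their highest sums in mouse 3. Macrophage sums were lowest in mouse 1 and near equal in mice 2 and 3, and T and NK cell sums differed little. By list median on the log2(TPM + 1) scale, macrophage genes rose from 1.75 and 2.46 in mice 1 and 2 to 2.79 in mouse 3. Among them Csf1r had 8.35, 15.6 and 24.8 TPM. The medians of T and NK cell genes were 1.89, 2.03 and 2.03. Erythroid genes, of which 9 of 10 measured had a mean TPM of at least 1, summed to 216, 159 and 283 TPM, and 8 of the 9 were highest in mouse 3, against 20.3% of all genes. B cell genes (4 of 6) summed to 47.4, 89.7 and 124 TPM, macrophage genes (4 of 7) to 93.7, 167 and 163 TPM, and T and NK cell genes (6 of 8) to 33.4, 34.9 and 38.6 TPM. Highest in mouse 3 were 3 of the 4 B cell genes, 3 of the 4 macrophage genes and 3 of the 6 T and NK cell genes. None of these markers was listed at 0 in all mice. The highest of these markers were Tfrc (148 TPM), Cd68 (99.7 TPM) and Ighm (72.2 TPM), and each made up most of its list's sum in every mouse. In mice 1, 2 and 3, Tfrc had 150, 120 and 176 TPM of the erythroid sum. Cd68 had 68.2, 124 and 107 TPM of the macrophage sum, and Ighm 32.2, 76.8 and 108 TPM of the B cell sum. Defining genes were low, with Cd3e at most 0.978 TPM and the globin gene Hba-a1 at most 1.26 TPM. Myeloid progenitor genes summed to 3176, 2382 and 4066 TPM, and 5 of 11 were highest in mouse 3, a share to be read against the same 20.3%, or 30.4% after upper-quartile scaling.

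The nuclear subunits of the same complexes were far lower per gene. On the log2(TPM + 1) scale, the 3 mitochondrial genes of complex IV had a median of 12.85 ± 0.13 and its 11 nuclear genes one of 7.97 ± 0.17, a difference of 4.87 ± 0.06 log2 units. The differences for complexes I, III and V were 3.80 ± 0.37, 3.48 ± 0.29 and 3.92 ± 0.39. In each complex every listed nuclear subunit had a lower mean than the lowest mitochondrial one. The highest nuclear subunits were Ndufa3 of complex I (236 ± 41.4 TPM), Uqcrb of complex III (259 ± 43.9 TPM), Cox8a of complex IV (461 ± 14.0 TPM) and Atp5b, the catalytic beta subunit of complex V (1060 ± 107 TPM).

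**Figure D4:**
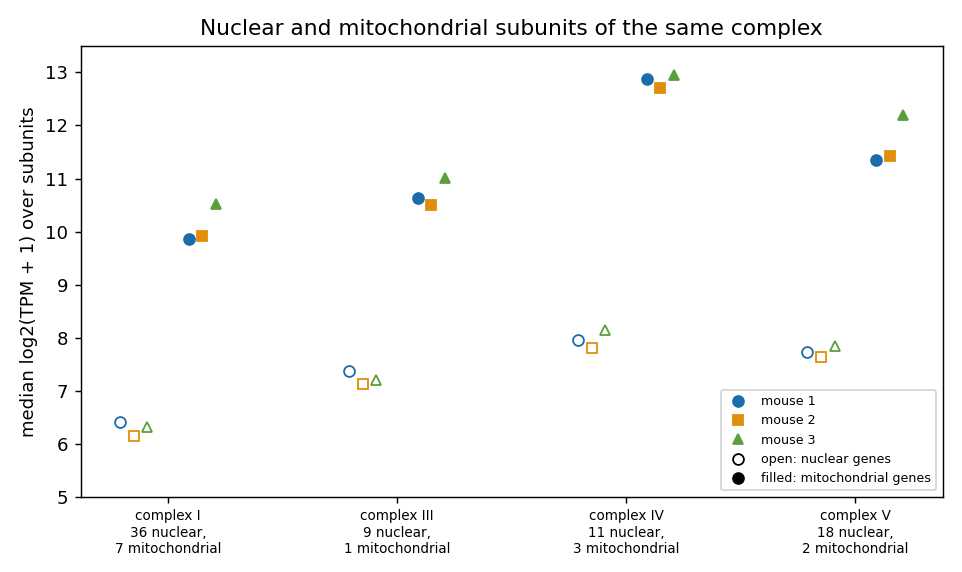
Points give the median log2(TPM + 1) over nuclear (open) and mitochondrial (filled) subunits of complexes I, III, IV and V in each mouse. The mitochondrial medians lie above the nuclear ones in every mouse, by 4.81 to 4.91 log2 units in complex IV and by 3.25 to 4.36 in the others.

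The gap was widest in mouse 3 for complexes I, III and V, at 4.20, 3.81 and 4.36 log2 units, against 3.46 to 3.76, 3.25 to 3.38 and 3.63 to 3.78 in mice 1 and 2. For complex IV it was 4.91, 4.91 and 4.81. Nuclear subunits were also often highest in mouse 3: 8 of 11 for complex IV, 11 of 17 for complex V, 20 of 36 for complex I and 4 of 9 for complex III, against the 20.3% of all genes. After upper-quartile scaling these counts became 9, 13, 27 and 5, against 30.4% of all genes. Complex II, which has no mitochondrial subunit, had 1 of 4 highest in mouse 3 and 3 of 4 in mouse 1, and 2 of 4 in each after that scaling. Its flavoprotein Sdha was listed at 133, 127 and 134 TPM.

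Nuclear genes that serve expression of the mitochondrial genome were compared by the mouse in which each was highest, against 48.6% of all genes for mouse 1 and 20.3% for mouse 3 in the deposited TPM. Among 16 genes of mitochondrial transcription and DNA upkeep, 9 were highest in mouse 1 and 3 in mouse 3, near those shares. Tfam, which packages mitochondrial DNA and starts its transcription, had 62.9, 39.8 and 50.8 TPM, and Mterfd1 of the termination factor family had 105, 107 and 101 TPM. Of 21 genes of RNA processing and decay, 18 were highest in mouse 1 and 2 in mouse 3. Slirp, part of a complex that stabilizes mitochondrial mRNAs, was 1 of these last, at 92.0, 83.6 and 107 TPM. Tbrg4, also known as Fastkd4 and needed for the stability of some mitochondrial mRNAs, was highest in mouse 1, at 176, 142 and 125 TPM.

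RNA modification genes were highest in mouse 1 in 19 of 21 cases, led by Nsun2 (201, 155 and 148 TPM), an RNA cytosine methyltransferase. Genes that charge mitochondrial tRNAs were highest in mouse 1 in 17 of 22 cases, among them Kars and Gars, which also serve the cytosol, at 98.9 ± 14.7 and 92.7 ± 18.7 TPM. Genes of mitochondrial translation and complex assembly were highest in mouse 1 in 24 of 35 cases and in mouse 3 in 9. Tufm, the mitochondrial elongation factor, had 61.9, 52.5 and 58.7 TPM, whereas Cox17, a copper chaperone for complex IV, had 38.3, 52.3 and 73.3 TPM. After upper-quartile scaling the share of all genes highest in mouse 1 was 35.6%, and the counts in mouse 1 became 8, 15, 14, 16 and 16 for the lists in the order given here, with 16 of 35 translation and assembly genes then highest in mouse 3.

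List medians ranged from 4.06 ± 0.17 (RNA modification) to 5.20 ± 0.19 (RNA processing and decay) on the log2(TPM + 1) scale. Transcription and DNA upkeep lay at 4.37 ± 0.21, tRNA synthetases at 4.29 ± 0.12 and translation and assembly at 4.33 ± 0.08.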

How the data were processed

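Total RNA of 3 leukemias was sequenced after ribosomal depletion according to one labelled protocol and with an mRNA kit according to another. RNA integrity numbers were above 8. The submitters' processing notes name kallisto and mm10 with no version, and the annotation is not given in the sources used here. The deposited values are linear and were taken as TPM, although the table's name says log2 FPKM. The 3 columns sum to 929731, 927169 and 928490 over all rows. The 3 columns of control leukemias, from another series, were not used. Rows without a symbol (795, 0.532% to 0.608% of the sums) or with a date for one (27 rows) were left out, and repeated symbols were summed.

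Logs used a pseudocount of 1. With 1 group no test was made. Named genes are all members and, per nuclear list, the 2 highest, the lowest and the widest with a mean TPM of at least 1, of which those that illustrate a result are printed. Sdha and the defining marker genes follow the lists, and AY036118 and Ptprc were named after their values were seen. Members and lists were chosen with earlier results of these data known. Planned rRNA and tRNA results were not run. Scaling was tested on simulated data. Python 3.11.15, numpy 2.4.6, pandas 2.3.3, matplotlib 3.10.9 and blastn 2.17.0 were used.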

Additional observations from a re-analysis of the deposited data

How the results depend on the processing

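Alternatives covered the pseudocount (0.1), upper-quartile scaling, scaling to the sum of rows that are not mitochondrial, the denominator of the share, nuclear copies added, the mean in place of the median, and each mouse left out in turn. Adding Gm10222 to mt-Nd4l, leaving AY036118 out of the denominator, shares within the 13 genes, scaling of the levels by complex to the sum of other rows, and every scaling and left-out mouse for single members were added once the data had been seen. The median SD of the members, 0.306, ranged from 0.0886 (without mouse 3) to 0.374 when a mouse was left out, and was 0.115 for shares within the 13 genes. The median SD over genes that averaged 1 TPM or more, 0.208, was 0.134 over every listed gene. By shares within the 13 genes 8 members, not 13, were highest in mouse 3. The ratio of mt-Nd6 was 0.607 against mt-Nd5 alone, a different reference. Adding Gm10222 raised mt-Nd4l from 1149.6 to 2299 TPM. The 4 other kinds of summary (share of TPM, levels by complex, gaps to nuclear subunits, list levels) moved by less than their SD under each alternative run. No paired analysis was possible because the samples make up a single group. The depth is unknown, so counting error cannot be stated.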
